A study of Mus musculus with 4 samples.

Results

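The Smoc2-rich interstitial stromal cells of the neonatal mouse testis were examined in 2 droplet libraries, one from control and one from Cnot3-cKO testes at postnatal day 8 (P8). The labels give the genotypes as wild-type (control) and Cnot3 KO (Cnot3-cKO). According to the study, neonatal control animals were Cnot3 flox/flox littermates, and Cnot3-cKO animals were Cnot3 flox/flox; Ddx4-creER. All received 4-hydroxytamoxifen injections from P1, with a last day that the labels give as P1 and P2 for the 2 control samples and as P3 and P4 for the 2 Cnot3-cKO samples, whereas the methods of the study state daily doses up to P3 for neonates. Testis cells were sorted with CD9 and THY1 antibodies. Ddx4 is a germ cell gene, so the Cre transgene is driven in germ cells and the stromal cells described here are not its intended target. Each deposited matrix merges the 2 samples of a genotype, so there was 1 library per genotype, no test between genotypes was possible, and intervals cover counting error only. How many animals each library holds is not given in the sources used here.

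A cell was taken as a barcode with at least 8000 unique molecular identifiers (UMIs, each a captured transcript molecule), of which there were 17567. Interstitial barcodes were those with at most 20% mitochondrial UMIs, at least 0.5% of UMIs from Col1a1, Col1a2, Col3a1 and Dcn, under 0.2% from the Sertoli genes Cst12, Cst9, Rhox8, Amh and Aard, under 10 UMIs of the germ cell genes Ddx4 and Dazl, and under 3 UMIs of the cycling genes Mki67 and Top2a. This left 7008 barcodes. Each was scored by its UMI share of Smoc2, of an Acta2 set (Acta2, Mgp, Col4a4, C1qtnf3) and of a Cd34 set (Cd34, S100a6, Nrk), each share divided by its mean over the 7008. The Smoc2 score was largest in 2131 barcodes, which are called Smoc2-rich cells below. The remaining ones were 2812 Acta2-rich and 2065 Cd34-rich cells. The levels of these 8 score genes chose the cells and are given only as a description.

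The interstitium of the testis lies between the seminiferous cords and holds steroid-producing Leydig cells, their mesenchymal progenitors, peritubular myoid cells, fibroblasts, vessels and macrophages. Leydig cells respond to luteinizing hormone through the receptor encoded by Lhcgr and make androgens with a chain of enzymes that includes 3β-hydroxysteroid dehydrogenase. SMOC2, a secreted calcium-binding protein of the SPARC family, belongs to the matricellular proteins, and TCF21 is a transcription factor of mesenchymal progenitors in several organs.

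Smoc2-rich cells made up 947 of 3369 interstitial barcodes in control (28.1%, exact 95% binomial interval 26.6 to 29.7%) and 1184 of 3639 in Cnot3-cKO (32.5%, 31.0 to 34.1%). This gap depended on how the scores were scaled. With score means taken within each library the shares were 30.8% and 30.6%. S100a6, a calcium-binding protein gene of the Cd34 set, was at 233 CPM (UMIs of the gene per 1000000 UMIs) in the control Smoc2-rich cells and at 133 CPM in those of Cnot3-cKO. Its part in the shares was not tested.

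The 2 libraries held 181550221 UMIs in control and 168770743 in Cnot3-cKO, and the median Smoc2-rich cell had 14448 and 13631 UMIs from 3784 and 3640.5 genes. No barcode sequence of a Smoc2-rich cell occurred in both libraries. Scrublet called 14 of the control and 9 of the Cnot3-cKO Smoc2-rich cells doublets, and they stayed in. From the Sertoli genes named above, free RNA was estimated at 2.75% and 2.37% of the UMIs of Smoc2-rich cells. The rule capped the share of these genes, so this estimate rests on values that the rule used. From the haemoglobin genes, which the rule did not use, the estimate was 1.71% in Cnot3-cKO. In control the haemoglobin estimate was 2325% and cannot be used. One control barcode held 8238 haemoglobin UMIs among its 24200. Cd9 transcripts were at 41.9 and 32.4 CPM, while Thy1 was at 0.0691 and 0.530 CPM, so the transcript of the second sort antigen was near 0 in these cells. Levels below are CPM over all cells of a class, with control first and Cnot3-cKO second, and are compared between classes for the same gene, not between genes.

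Smoc2 was detected in every Smoc2-rich cell, with a median of 21 UMIs in control and 20 in Cnot3-cKO. Its level was 1518 and 1511 CPM, against 720 and 717 CPM in Acta2-rich cells and 840 and 811 CPM in Cd34-rich cells. The score therefore picked the upper end of a gene that all interstitial classes carried. Sertoli cells, a reference set of 7272 barcodes with at least 0.5% of UMIs from the Sertoli genes, had 28.8 and 31.7 CPM.

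The other markers of the label did not set these cells apart from the rest of the stroma. Tcf21 was at 1038 and 839 CPM in Smoc2-rich cells and at 1231 and 1144 CPM in Acta2-rich cells. Mfap4, which encodes a microfibril-associated glycoprotein, was at 1234 and 1207 CPM against 1431 and 1522 CPM. Both were thus highest in the Acta2-rich class. Ebf1, a transcription factor gene, was at 527 and 551 CPM, between 155 and 179 CPM in Acta2-rich and 901 and 921 CPM in Cd34-rich cells. All 3 genes were at 14.5 to 39.7 CPM in Sertoli cells. The markers thus separated interstitial stroma from Sertoli cells, and within the stroma they did not single out the Smoc2-rich class.

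**Figure D1:**
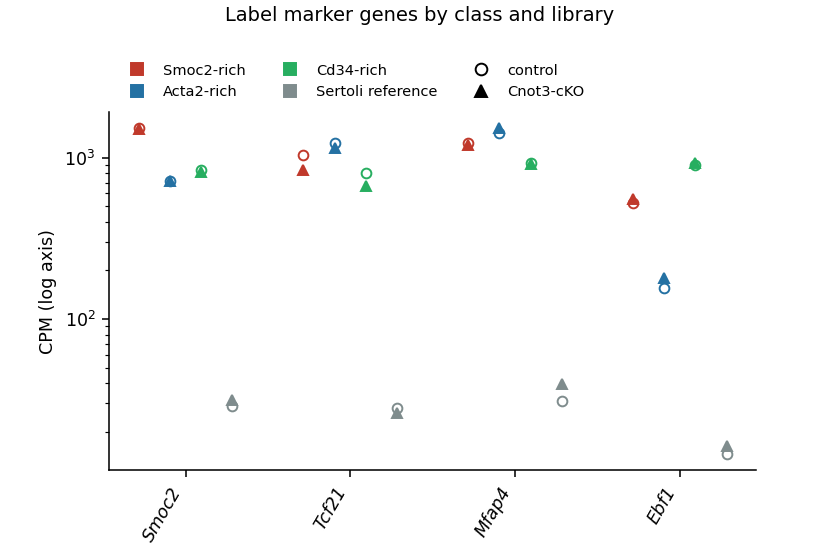
Levels of the 4 label markers (CPM, log axis) in Smoc2-rich, Acta2-rich, Cd34-rich and Sertoli cells, with an open circle for the control and a triangle for the Cnot3-cKO library. Only Smoc2, which chose the cells, is highest in the Smoc2-rich class in both libraries, and all 4 genes are at 39.7 CPM or less in Sertoli cells.

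A small set of genes that the scores did not use was nevertheless concentrated in the Smoc2-rich cells of both libraries. Among 11384 genes with at least 100 UMIs over both sides of the comparison in each library, 82 (0.72% of those compared) were at least 2-fold higher in Smoc2-rich cells than in the other interstitial cells in both libraries, and 290 (2.55%) were at least 2-fold lower. Counts of genes called higher or lower below use this rule. Against the other interstitial cells, such counts are to be read beside the shares of 0.72% higher and 2.55% lower. The leading 15 genes by the lower limit of the ratio were Hsd3b1, Kit, Lhcgr, Bmp2, Crtac1, Oxtr, Nppc, Foxl2, Gsta2, Cpm, Ptpn5, Pthlh, Ppp1r16b, Defb19 and Gja1. Cells chosen by their Smoc2 score against the Acta2-set and Cd34-set scores differ from the rest by construction. These ratios are therefore descriptions with counting intervals.

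The first group of leading genes encodes receptors. Lhcgr, the luteinizing hormone receptor gene, was at 19.1 and 21.8 CPM in Smoc2-rich cells, against 1.52 and 2.04 CPM in Acta2-rich, 3.03 and 3.05 CPM in Cd34-rich and 0.305 and 0.308 CPM in Sertoli cells. It was thus over 2-fold above every other class in both libraries. The log2 ratio over the other interstitial cells was 3.14 in control (95% interval 2.76 to 3.53) and 3.18 in Cnot3-cKO (2.82 to 3.55). Sertoli cells, with a median of 13383 and 12883 UMIs, serve as the class that should lack these genes. With each cell thinned to 8000 UMIs, 11.0% of control and 11.8% of Cnot3-cKO Smoc2-rich cells held a Lhcgr UMI, and 0.14% and 0.0913% of Sertoli cells did. Kit, the stem cell factor receptor gene, was at 21.5 and 24.2 CPM against 1.41 and 2.23 CPM in Acta2-rich and 3.71 and 3.58 CPM in Cd34-rich cells. Its log2 ratio was 3.16 in both libraries (2.80 to 3.53 and 2.82 to 3.51). Kit is also a gene of differentiating spermatogonia, and Ddx4 and Dazl were limited by the rule to fewer than 10 UMIs per cell. Oxtr, the oxytocin receptor gene, was at 79.1 and 91.7 CPM, and 35.9% and 39.0% of thinned Smoc2-rich cells held a UMI of it, against 0.346% and 0.48% of Sertoli cells.

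The next group encodes secreted signals. Bmp2, a bone morphogenetic protein gene, was at 32.7 and 36.3 CPM against 2.83 and 3.79 CPM in Acta2-rich and 9.15 and 9.07 CPM in Cd34-rich cells, a log2 ratio over both of 2.56 (2.31 to 2.81) and 2.68 (2.44 to 2.92). Pthlh, which encodes parathyroid hormone-related protein, was at 10.2 and 11.9 CPM against 1.16 to 2.56 CPM in the other interstitial classes. Nppc, the gene of C-type natriuretic peptide, was at 8.09 and 8.71 CPM against 0.471 to 2.48 CPM. Bmp2 was spread over many cells, whereas 5 cells held 40.2% of the control and 29.1% of the Cnot3-cKO Nppc UMIs. Crtac1, which encodes a secreted matrix protein, was at 10.5 and 13 CPM against 1.24 to 2.27 CPM.

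Foxl2, a transcription factor gene known from ovarian granulosa cells, was at high levels relative to both neighbours. It was at 51.5 and 54.9 CPM against 11.3 and 14.0 CPM in Acta2-rich and 6.88 and 8.20 CPM in Cd34-rich cells. Its log2 ratio was 2.46 (2.26 to 2.65) and 2.20 (2.03 to 2.38). Foxl2 UMIs were found in 23.2% and 25.3% of thinned Smoc2-rich cells and in 0.415% and 0.343% of Sertoli cells.

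Of the genes of metabolism and protein modification, Gsta2, a glutathione transferase gene, was the most widely detected, with a UMI in 76.0% and 71.7% of thinned Smoc2-rich and 28.9% and 25.1% of Sertoli cells. It was at 303 and 284 CPM against 49.9 and 45.1 CPM in Acta2-rich and 112 and 115 CPM in Cd34-rich cells. Cpm, the carboxypeptidase M gene, was at 14.2 and 13.7 CPM against 0.994 to 5.84 CPM. Ptpn5, which encodes a tyrosine phosphatase, was at 27.9 and 23.2 CPM against 2.67 to 11.4 CPM. Cpm and Ptpn5 were below 1 CPM in Sertoli cells, whereas Gsta2 was there at 65.4 and 51.7 CPM.

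A last group of leading genes was higher still in Sertoli cells. Defb19, a β-defensin gene, was at 183 and 175 CPM in Smoc2-rich cells, at 36.4 to 58.3 CPM in the other interstitial classes and at 1317 and 1404 CPM in Sertoli cells. Gja1, which encodes the gap junction protein connexin 43, was at 13.3 and 18.5 CPM against 305 and 437 CPM in Sertoli cells. Ppp1r16b, a phosphatase regulatory subunit gene, was at 9.19 and 7.59 CPM against 67.3 and 80.2 CPM. Of the 7 Sertoli markers compared, Defb19 was the only one called higher, and the list median was 0.38 and 0.26 on the log2 scale against -0.05 and -0.04 over all genes. The list summed to 913 and 910 CPM in Smoc2-rich, 627 to 833 CPM in the other interstitial and 9796 and 10807 CPM in Sertoli cells, and Fshr was at 0 and 0.0588 CPM in Smoc2-rich cells. Sox9 was at 9.33 and 12.5 CPM in Smoc2-rich cells against 520 and 493 CPM in Sertoli cells. The part of Sertoli RNA in the Defb19, Gja1 and Ppp1r16b ratios was not tested.

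**Figure D2:**
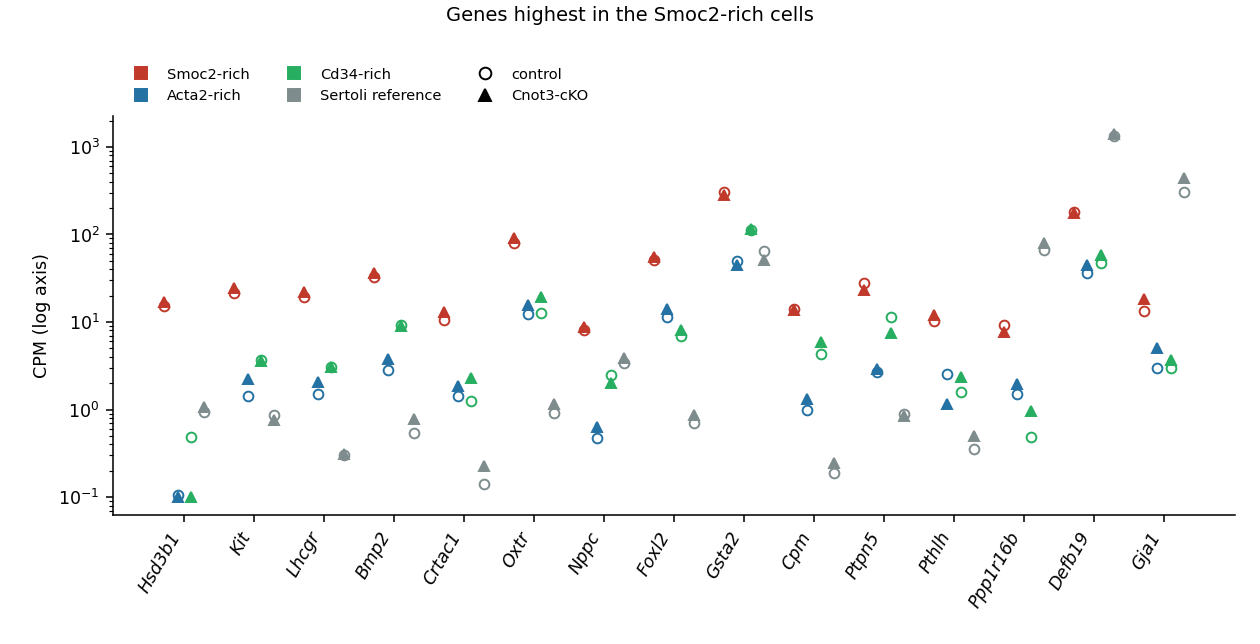
Levels (CPM, log axis) of the 15 leading genes in the 4 cell classes, with an open circle for the control and a triangle for the Cnot3-cKO library; values under 0.1 are drawn at 0.1. The red Smoc2-rich points lie above the blue and green interstitial points for all 15 genes, and the grey Sertoli points lie above them for Ppp1r16b, Defb19 and Gja1.

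Hsd3b1, the gene of a gonadal 3β-hydroxysteroid dehydrogenase, had the largest ratio of the genes compared and was carried by few cells. It was at 15.2 and 17.1 CPM in Smoc2-rich cells, from 220 and 290 UMIs, against 9 and 3 UMIs in all other interstitial cells together. The log2 ratio was 5.83 (4.88 to 6.98) and 7.51 (5.95 to 9.80). Only 24 control and 34 Cnot3-cKO Smoc2-rich cells held a UMI, and 5 cells held 87.3% and 59.3% of the UMIs. Cells with 3 or more Hsd3b1 UMIs numbered 8 of 947 (0.845%, 0.365 to 1.66%) and 19 of 1184 (1.60%, 0.969 to 2.49%), against 0 and 0 in the Acta2-rich, 1 and 0 in the Cd34-rich and 1 and 0 in the Sertoli class. Without those 8 and 19 cells the log2 ratio was 2.24 and 3.68, and 1.39 over Cd34-rich cells in control. These ratios rest on 18 and 20 UMIs left in Smoc2-rich cells, against the 9 and 3 UMIs above. The 1 control Cd34-rich cell with 3 or more UMIs was kept, which lowers the control ratios.

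These 8 and 19 cells, chosen after their values were seen, differed from the other Smoc2-rich cells beyond Hsd3b1. Kit was at 122 and 124 CPM in them and at 19.9 and 22.2 CPM in the rest. Lhcgr was at 163 and 89.4 CPM against 16.8 and 20.4 CPM. Cyp11a1, the cholesterol side-chain cleavage enzyme gene, had 19 of its 24 control UMIs and 9 of its 13 Cnot3-cKO UMIs in them. Of these, 18 in control and 7 in Cnot3-cKO lay in 1 barcode, so this gene says little about the other cells of the group. The stromal genes went the other way, with Tcf21 at 85.9 and 124 CPM against 1053 and 854 CPM, and Mfap4 at 122 and 182 CPM against 1252 and 1229 CPM. Smoc2 itself was alike, at 1556 and 1522 CPM against 1517 and 1511 CPM. The cells had a median of 25357.5 and 16749 UMIs, against 14412 and 13593 in the rest, and Scrublet called none of them a doublet. They also carried more Gja1, at 131 and 159 CPM against 11.5 and 15.6 CPM, and more Clu, a Sertoli gene, at 158 and 257 CPM against 27.7 and 34.5 CPM. Their share of the 5 Sertoli genes of the rule was 0.00452% and 0.0133%, against 0.00748% and 0.00991% in the rest.

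Lhcgr did not follow that concentration. Its 276 and 370 UMIs lay in 178 and 236 Smoc2-rich cells, and 5 cells held 13% and 11.9% of them. Without the cells of 3 or more Hsd3b1 UMIs, Lhcgr was still at 16.8 and 20.4 CPM, above the 3.05 CPM or less of the other interstitial classes. Averaged over all Smoc2-rich cells, 4 other Leydig genes were low. Star was at 1.04 and 2.12 CPM and Cyp17a1 at 0.760 and 0.471 CPM. Insl3 was at 0.138 and 0.471 CPM and Hsd3b6 at 0.553 and 0.353 CPM. The cells with 3 or more Hsd3b1 UMIs held 10 of 11 control and 5 of 8 Cnot3-cKO Cyp17a1 UMIs, and the 10 control UMIs all lay in 1 barcode. For Star the cells with 3 or more Hsd3b1 UMIs held 0 of 15 and 6 of 36 UMIs. Of the 15 Leydig and steroidogenic genes, 9 had enough UMIs to be compared, 2 were called higher (Lhcgr and Hsd3b1) and 0 lower, with a median of 0.24 and 0.30. Nr5a1, the gene of the steroidogenic factor 1 transcription factor, was at 41.6 and 43.7 CPM against 28.4 to 39.7 CPM in the other interstitial classes and 71.2 and 78.1 CPM in Sertoli cells, and was not called. Fdx1 and Por, electron donors of steroid hydroxylases, had log2 ratios of -0.01 and 0.08, and of 0.24 and 0.30.

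The sequences before the start sites of the 2 leading genes tied to Leydig function are shown because both were concentrated in the same class while differing in their spread over cells. Each is the 250 bases upstream of the RefSeq start (GRCm38.p6), read 5′ to 3′ on the strand of the gene. Matches to AGATAA or its reverse complement TTATCT, a form of the GATA factor motif, are in capitals. The Hsd3b1 window is chr3:98859795-98860044 and the Lhcgr window is chr17:88792015-88792264, both on the minus strand. The Hsd3b1 start is also a transcript start in GENCODE M21, and the Lhcgr start is not.
Hsd3b1: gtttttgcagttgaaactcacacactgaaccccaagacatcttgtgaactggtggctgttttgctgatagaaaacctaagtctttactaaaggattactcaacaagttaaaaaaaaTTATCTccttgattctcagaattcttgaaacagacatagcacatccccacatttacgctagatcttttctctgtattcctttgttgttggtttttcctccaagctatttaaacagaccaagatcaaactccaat
Lhcgr: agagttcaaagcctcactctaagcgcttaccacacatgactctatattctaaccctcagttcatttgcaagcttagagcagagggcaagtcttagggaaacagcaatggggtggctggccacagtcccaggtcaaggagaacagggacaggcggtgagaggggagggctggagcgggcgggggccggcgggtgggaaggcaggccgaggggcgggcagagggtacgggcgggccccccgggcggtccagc
The Hsd3b1 window held 1 match to AGATAA or TTATCT and the Lhcgr window none, and neither held AAGGTCA or TGACCTT, the NR5A half-site. Other forms of the GATA motif were not searched. Of the 15 leading genes 13 were in the promoter table (Bmp2 and Defb19 were not), 0 of them held the NR5A half-site and 3 (Hsd3b1, Ppp1r16b and Gja1) held AGATAA or TTATCT. Over all 32851 windows the shares were 4.08% and 9.99%. A match describes the letters of this window and is neither a binding site nor a cause.

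The number of the 15 leading genes found per cell follows from their choice as highest in this class and is given as a description. With cells thinned to 8000 UMIs, the median Smoc2-rich cell held UMIs of 3 of the 15 genes in both libraries. At least 5 of the 15 were found in 17.8% and 19.3% of Smoc2-rich cells, against 0.613% and 0.332% of Acta2-rich, 1.79% and 2.22% of Cd34-rich and 1.11% and 1.16% of Sertoli cells. Sertoli cells also had a median of 3 of 15, and Defb19, Gja1 and Ppp1r16b were high in them. Whether the genes share cells beyond their separate rates was not tested.

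When Smoc2-rich cells were split by a Lhcgr UMI at 8000 UMIs, into 104 with and 843 without in control and 140 and 1044 in Cnot3-cKO, the leading genes did not all go one way. Foxl2 was at 95.8 against 45.6 CPM in control and at 85.6 against 50.2 CPM in Cnot3-cKO, and Oxtr at 130 against 72.3 CPM and at 140.4 against 84.3 CPM. Both were higher with a Lhcgr UMI in both libraries. Cpm was at 5.32 against 15.3 CPM in control and at 16 against 13.4 CPM in Cnot3-cKO, and Crtac1 at 16 against 9.78 CPM and at 13.8 against 12.9 CPM. In the 8 control cells with 3 or more Hsd3b1 UMIs, Cpm, Crtac1 and Pthlh were at 0.

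Levels were also read along the Smoc2 share of all interstitial barcodes, split into quintiles within each library. Smoc2-rich cells were 0.148% and 0.275% of the lowest quintile and 79.5% and 87.6% of the highest, so the levels largely follow the class and do not show whether a gene is graded or steps at its border. Lhcgr went from 1.12 and 1.55 CPM in the lowest quintile to 18.0 and 22.6 CPM in the highest, Oxtr from 5.37 and 9.31 CPM to 78.2 and 91.1 CPM, and Foxl2 from 6.38 and 9.43 CPM to 44.4 and 50.9 CPM. Igf1, the insulin-like growth factor 1 gene, went from 393 and 437 CPM to 939 and 1093 CPM. Hsd3b1 was uneven, at 0, 0.209, 1.55, 13.4 and 7.94 CPM from the lowest to the highest quintile in control and at 3.77, 0.829, 2.62, 1.84 and 20.3 CPM in Cnot3-cKO. Pthlh was at 7.75 CPM in the next-highest and 6.93 CPM in the highest quintile of control. Tcf21 was nearly level in control, at 1030 and 1048 CPM in the lowest and highest quintile, and was at 946 and 835 CPM in Cnot3-cKO. Acta2, a gene of the score against which Smoc2 was weighed, went from 1984 and 1691 CPM to 366 and 294 CPM.

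**Figure D3:**
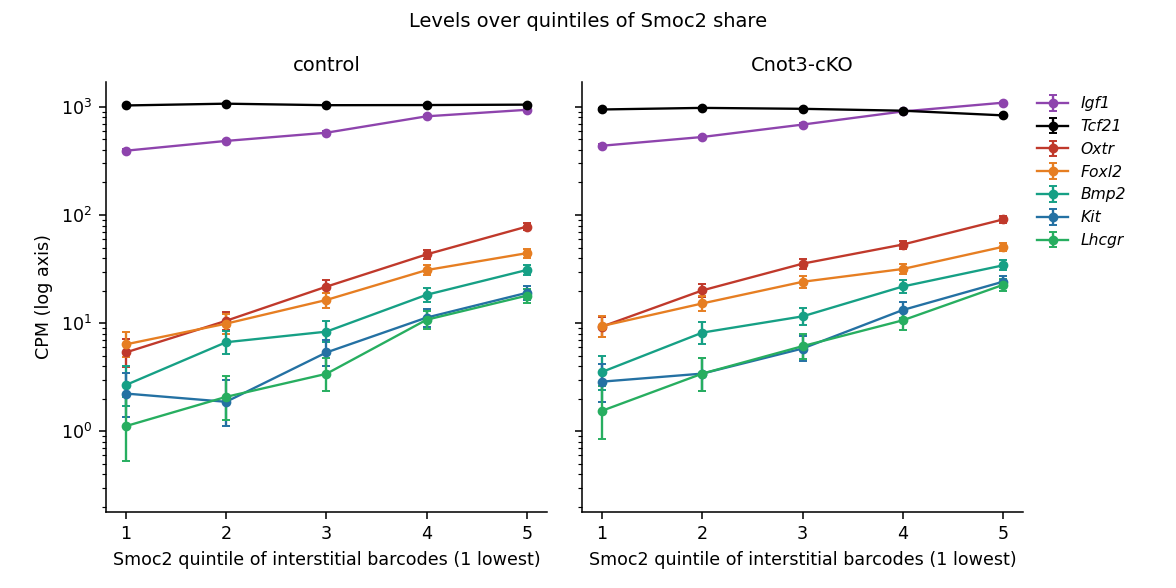
Levels (CPM, log axis; bars are exact 95% binomial intervals of the UMI share) of 7 genes over quintiles of the interstitial barcodes ordered by Smoc2 share, for each library. All of Lhcgr, Kit, Bmp2, Foxl2, Oxtr and Igf1 are highest in the top quintile of both libraries, whereas Tcf21 is level in control and lowest in the top quintile in Cnot3-cKO.

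The rule has a threshold, and the cells on either side of it are described without a test. The 105 control and 88 Cnot3-cKO cells whose Smoc2 score exceeded the next score by at most 1.1 times had Smoc2 at 1228 and 1224 CPM and Lhcgr at 11.5 and 8.44 CPM. The 106 and 116 cells just outside had Smoc2 at 1141 and 1123 CPM and Lhcgr at 5.29 and 2.52 CPM. The 374 and 510 cells with at least 2 times the next score had Lhcgr at 28.2 and 29.3 CPM.

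The Smoc2-rich level lay between those of the Acta2-rich and Cd34-rich classes for 46.8% and 46.7% of the 10353 genes compared with both. Of the genes that differed at least 2-fold between Acta2-rich and Cd34-rich cells, 1041 in control and 1004 in Cnot3-cKO, it lay between in 82.4% and 82.1%, a position that choosing genes by a large gap between the neighbours favours. Only 34 of 10353 genes (0.328%) were at least 2-fold above both classes in both libraries, and 14 (0.135%) were at least 2-fold below both. All 15 leading genes were among the 34, with Cyp26b1, Crabp1, Fgfr4, Mrap, Spon1, Ano1 and Rasd1 among the others. The 14 included Des, Fst, Id4, Tgfbi, Vcan, Gfpt2 and Pdgfrl.

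Against Acta2-rich cells alone, 270 of 10780 genes (2.5%) were higher and 344 (3.19%) lower. The peritubular myoid genes, which encode the contractile apparatus, were the lower group. The rule favours this direction, because cells with a larger Acta2-set score went to the Acta2-rich class. Of 10 compared outside the rule, 7 were called lower than in the other interstitial cells and 0 higher, with a median of -1.63 and -1.53. Tagln, which encodes transgelin, was at 32.4 and 32.1 CPM against 576 and 547 CPM in Acta2-rich cells. Myh11, the smooth muscle myosin heavy chain gene, was at 47.1 and 56.4 CPM against 346 and 375 CPM. Igfbp5 was at 13.8 and 12.3 CPM against 135 and 91.2 CPM, and Tnnt2, a troponin gene, at 9.40 and 7.41 CPM against 108 and 70.2 CPM. The pericyte list had 2 of 6 genes called lower (Rgs5 and Mcam) and 0 higher. Rgs5 had 1 UMI in the Smoc2-rich cells of each library, and 212 and 131 UMIs in Acta2-rich cells, so its ratio rests on a handful of Acta2-rich barcodes. The leading genes above Acta2-rich cells, after Hsd3b1, were Aqp5, Gdpd2, Adam12, S100b, Aqp2, Sbspon and Efemp1. S100b was at 74.0 and 71.4 CPM against 4.92 and 5.29 CPM, but at 157 and 163 CPM in Cd34-rich cells, so it was shared with that class.

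Against Cd34-rich cells alone, 156 of 10504 genes (1.49%) were higher and 316 (3.01%) lower. The adventitial fibroblast genes were low relative to Cd34-rich cells, which the rule also favours, because cells with a larger Cd34-set score went to the Cd34-rich class. Of 8 compared against all other interstitial cells, 4 were called lower (Pi16, Cd55, Clec3b and Gfpt2) and 0 higher, with a median of -0.77 in both libraries. Against Acta2-rich cells the median was instead above 0, at 0.34 and 0.20 over 6 genes, of which 2 were called higher and 1 lower. Clec3b, the tetranectin gene, was at 25.6 and 33.7 CPM against 394 and 458 CPM in Cd34-rich cells. Mfap5 was at 23.6 and 26.7 CPM against 284 and 290 CPM, Dpt, the dermatopontin gene, at 14.0 and 20.3 CPM against 150 and 174 CPM, and Postn, the periostin gene, at 5.94 and 8.77 CPM against 72.0 and 85.8 CPM. Nr0b1, which encodes the nuclear receptor DAX1, was at 1.45 and 1.24 CPM against 34.6 and 35.0 CPM in Cd34-rich and 1.26 and 1.16 CPM in Acta2-rich cells. The leading genes above Cd34-rich cells were, after Hsd3b1, Enpep, Thbs4, Chn2, Foxl2, Abcg5, Acsbg1 and Lhcgr. Enpep, the glutamyl aminopeptidase gene, was at 50.2 and 62.8 CPM against 5.09 and 7.5 CPM, and Thbs4, a thrombospondin gene, at 113 and 94.2 CPM against 14.5 and 13.1 CPM. Both were about level with Acta2-rich cells, at 59.8 and 82.5 CPM and at 114 and 103 CPM, so these genes set the Cd34-rich class apart from both.

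**Figure D4:**
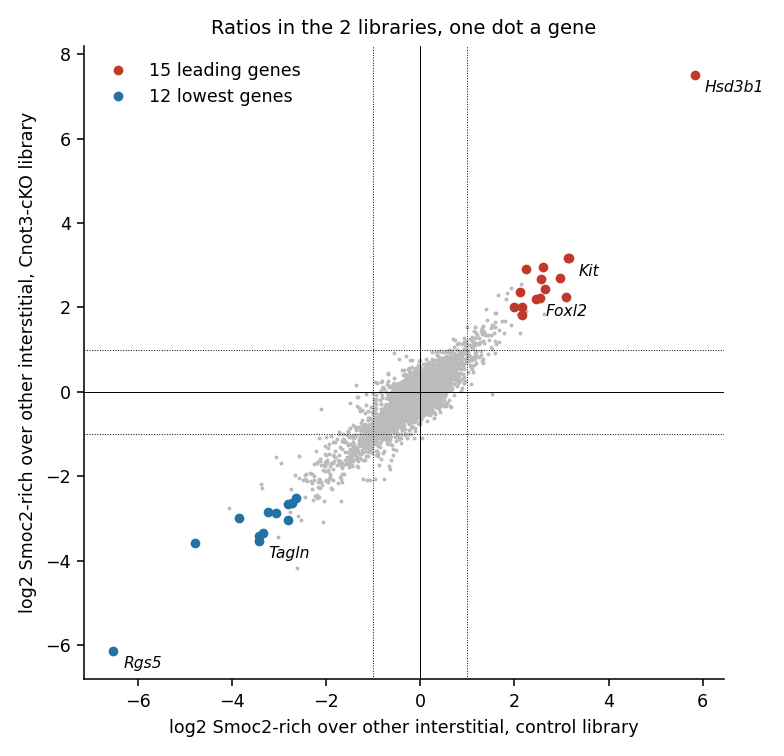
Log2 ratio of Smoc2-rich over other interstitial cells in the control (x) and Cnot3-cKO (y) libraries, 1 dot per gene compared, with dotted lines at 2-fold. The 15 leading genes (red) and the 12 lowest (blue) lie past 2-fold in both libraries, with Hsd3b1 at 5.83 and 7.51 and Rgs5 at -6.52 and -6.13 farthest out.

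The signalling genes, taken as lists, gave few calls, as did all genes compared (0.72% higher and 2.55% lower). Of 12 Hedgehog genes compared 0 were called in either direction, which is the pathway through which Sertoli-derived desert hedgehog reaches stromal cells. Ptch1, the Hedgehog receptor and target gene, was at 281 and 313 CPM against 232 to 394 CPM in the other interstitial classes, and Hhip, which encodes a Hedgehog-binding inhibitor, had log2 ratios of 0.82 and 0.92. Dhh itself was at 1.45 and 3.06 CPM against 225 and 237 CPM in Sertoli cells. Of 7 Wnt ligands and 4 Wnt inhibitors compared 0 were called, and of 17 Wnt receptors and targets 1 was lower (Nkd2) and 0 higher. Wnt5a was at 120 and 118 CPM against 176 to 190 CPM, and Wnt5b and Ror2 had log2 ratios of 0.69 and 0.79 and of 0.63 and 0.42. Of 10 Notch genes 1 was lower (Heyl, at 22.9 and 25.4 CPM against 140 and 119 CPM in Acta2-rich cells), and of 6 PDGF genes 1 was lower (Pdgfrl). Pdgfra, the receptor gene of mesenchymal progenitors, was at 254 and 284 CPM with a log2 ratio of -0.16 in both libraries.

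Of the TGF-β and BMP genes, 17 ligands and receptors had a median of -0.32 in both libraries, with 5 above and 10 below 0 in both. Among them Bmp2 was called higher and Tgfbr2, a TGF-β receptor gene at 40.4 and 34.3 CPM against 145 and 133 CPM in Cd34-rich cells, was called lower. Bmp4 was at 70.2 and 75.7 CPM, with log2 ratios of 0.80 and 0.62, and was not called. All 13 inhibitor and latency genes compared were below 0 on the log2 scale, with a median of -0.63 and -0.67 against -0.05 and -0.04 over all genes, and 2 of them, Fst and Ltbp2, were called lower. Fst, the follistatin gene, was at 2.28 and 2.24 CPM against 5.58 to 8.55 CPM, and Ltbp2 at 1.24 and 2.59 CPM against 29.1 and 29.9 CPM in Acta2-rich cells.

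Growth factor genes gave few calls. Of 13 insulin-like growth factor genes 1 was called higher (Igfbp2) and 2 lower (Igfbp3 and Igfbp5). Igf1 was at 990 and 1073 CPM against 459 and 540 CPM in Acta2-rich and 560 and 603 CPM in Cd34-rich cells, with log2 ratios of 0.98 (0.95 to 1.01) and 0.93 (0.90 to 0.96), just under the 2-fold line. Of 14 niche and stromal growth factors Vegfa was called higher and Fgf7 lower. Vegfa, the vascular endothelial growth factor A gene, was at 56.3 and 53.1 CPM against 8.90 and 10.4 CPM in Acta2-rich and 38.6 and 39.6 CPM in Cd34-rich cells. Gdnf, a spermatogonial stem cell factor gene, was at 7.74 and 8.65 CPM against 24.4 and 27.7 CPM in Acta2-rich cells. Of 11 FGF receptor and feedback genes Fgfr4 was called higher, at 5.67 and 5.83 CPM against 1.02 to 2.68 CPM, and Dusp6 lower. Of 23 nuclear receptors Nr0b1 was called lower and 0 higher.

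The retinoid genes had a list median of 0.61 and 0.55 over 11 compared, with 2 called higher and 2 lower. Cyp26b1, which encodes the enzyme that degrades retinoic acid, was called higher at 344 and 323 CPM against 109 and 136 CPM in Acta2-rich and 90.7 and 101 CPM in Cd34-rich cells. Crabp1, a retinoic acid-binding protein gene, was called higher at 23.8 and 17.5 CPM against 3.14 to 5.81 CPM. Dhrs3, a retinal reductase gene, had log2 ratios of 1.19 and 0.95, and Aldh1a1, which encodes an enzyme that makes retinoic acid, of 0.98 and 0.85. Neither reached 2-fold in both libraries, and Aldh1a1 was higher in Sertoli cells, at 882 and 945 CPM against 204 and 218 CPM. Rbp4 and Aldh1a2 were called lower, with Rbp4 at 33.3 and 36.5 CPM against 126 and 132 CPM in Acta2-rich cells.

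Of the matrix genes, more were called lower than higher, as was the case over all genes compared (2.55% lower and 0.72% higher). Of 19 collagens compared Col23a1 was called higher, at 79.3 and 82.3 CPM against 19.5 to 52.1 CPM, and 4 were called lower (Col4a1, Col4a2, Col7a1 and Col16a1). Col4a1, a basement membrane collagen gene, was at 471 and 475 CPM against 1599 and 1420 CPM in Acta2-rich cells. Of 36 matricellular, elastic fibre and proteoglycan genes 4 were called lower (Mfap5, Eln, Postn and Vcan) and 0 higher. Eln, the elastin gene, was at 96.8 and 92.9 CPM against 360 and 390 CPM in Acta2-rich cells. Smoc1, the paralogue of Smoc2, was at 44.4 and 40.4 CPM against 63.4 and 61.5 CPM in Acta2-rich and 31.1 and 27.6 CPM in Cd34-rich cells, so it did not follow Smoc2. Of 11 laminin and basement membrane genes 0 were called, with Lamc3 at 138 and 161 CPM against 341 and 370 CPM in Acta2-rich cells, and of 21 matrix proteases and inhibitors 3 were called lower (Mmp23, Timp3 and Plat) and 0 higher.

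Of 42 stromal transcription factors compared 2 were called lower (Gata6 and Tbx3) and 0 higher, and of 14 interstitial progenitor genes 2 were lower (Nes and Mcam) and 0 higher, with a median of -0.16 and -0.19. Nr2f2 and Lhx9, transcription factor genes of the fetal and neonatal interstitium, had log2 ratios of -0.38 and -0.31, and of 0.17 and 0.14. The Smoc2-rich cells thus carried both genes at levels within 2-fold of the other interstitial cells. Of 9 complement and chemokine genes 2 were lower (Cxcl14 and Cd55), of 16 imprinted growth genes 0 were called, and of 11 CCR4-NOT subunits 0 were called. Among 13 sort and surface genes Kit and Vcam1 were called higher and Cd9, Cd44, Mcam and Alcam lower. Vcam1, a cell adhesion molecule gene, was at 173 and 203 CPM against 23.8 and 26.3 CPM in Acta2-rich and 102 and 108 CPM in Cd34-rich cells, and was found in 63.8% and 65.9% of thinned Smoc2-rich cells and 1.07% and 1.64% of Sertoli cells.

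The macrophage and germ cell lists were low, and the endothelial list was low apart from Cdh5. Of the macrophage list 1 of 10 genes could be compared and was lower (Lyz2, at 0.691 and 1.12 CPM), and the list summed to 5.67 and 3.77 CPM, with Adgre1 at 0 in both libraries. Of the endothelial list 3 could be compared, 1 was lower (Tek) and 0 higher. Pecam1, Kdr and Tie1 were at 1.30 CPM or less, whereas Cdh5, the vascular endothelial cadherin gene, was at 83.4 and 91.0 CPM in Smoc2-rich and 139 and 151 CPM in Cd34-rich cells. The endothelial list summed to 96.2 and 110 CPM, against 22.7 and 37.2 CPM in Acta2-rich and 155 and 170 CPM in Cd34-rich cells. In all, 197 control and 277 Cnot3-cKO Smoc2-rich cells held 3 or more UMIs of the macrophage or of the endothelial list. Of the germ cell list 3 were compared and 0 called, and the list summed to 40.0 and 30.7 CPM against 638 and 398 CPM in empty barcodes.

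Variation among Smoc2-rich cells was ranked by the ratio of variance to mean, a measure that favours abundant transcripts and was not adjusted for level. Over 7155 genes with a mean of at least 0.1 UMIs after thinning, the median ratio of variance to mean was 1.04 in both libraries, with 95% of genes below 1.45 and 1.48. The 10 genes with the highest ratios in both libraries were Malat1, Meg3, RP23-81C12.3, Dlk1, Igf1, Vim, Ctgf, Btg2, Jun and Id3. Meg3 and Dlk1, imprinted neighbours on chromosome 12, had ratios of 12.4 and 12.5 and of 11.5 and 9.10, and were at 2220 and 2130 CPM and at 507 and 420 CPM. Dlk1 was at 1998 and 1854 CPM in Cd34-rich and 109 CPM in Acta2-rich cells of both libraries. Igf1 had ratios of 5.49 and 5.64. Hsd3b1, too sparse for that list, had ratios of 11.7 and 15.4.

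The last comparison asked whether the Smoc2-rich cells differed between the 2 genotypes. Cnot3, the gene deleted in germ cells, was at 42.6 CPM in control and 45.6 CPM in Cnot3-cKO Smoc2-rich cells, which is 0.10 on the log2 scale (95% interval -0.06 to 0.25). The libraries tag the 3′ end of transcripts and the Cre is not driven in stroma, so this value does not check the genotype labels. The other CCR4-NOT subunits had 0 of 11 genes past 1.5-fold. Of 10737 genes that reached 100 UMIs when the libraries were summed, 90 (0.838%) were at least 1.5-fold higher and 78 (0.726%) at least 1.5-fold lower in Cnot3-cKO. With 1 library each, these compare the libraries and have no replicate check. If the labelled last days of injection hold, they run with genotype and cannot be told apart from it.

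The immediate early genes, which are induced within minutes by growth signals, stress or tissue dissociation, stood out as a list. Of 16 compared 12 were past 1.5-fold higher, all 16 were above 0, and the median log2 ratio was 1.05 against -0.01 over all genes. Fos was at 126 CPM in control and 545 CPM in Cnot3-cKO (log2 2.11, 2.04 to 2.19). Fosb was at 78.6 and 306 CPM, Junb at 85.5 and 340 CPM, and Zfp36, which encodes an mRNA decay factor, at 17.1 and 73.6 CPM. Btg2 was at 141 and 408 CPM, Egr1 at 296 and 608 CPM and Nr4a1 at 17.0 and 46.0 CPM. The difference was not confined to Smoc2-rich cells. The list median was 0.99 in Acta2-rich, 0.84 in Cd34-rich and 0.16 in Sertoli cells, with Fos at 2.46, 2.19 and 0.77. Between Smoc2-rich and other interstitial cells, 0 of 17 immediate early genes were called in either direction.

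**Figure D5:**
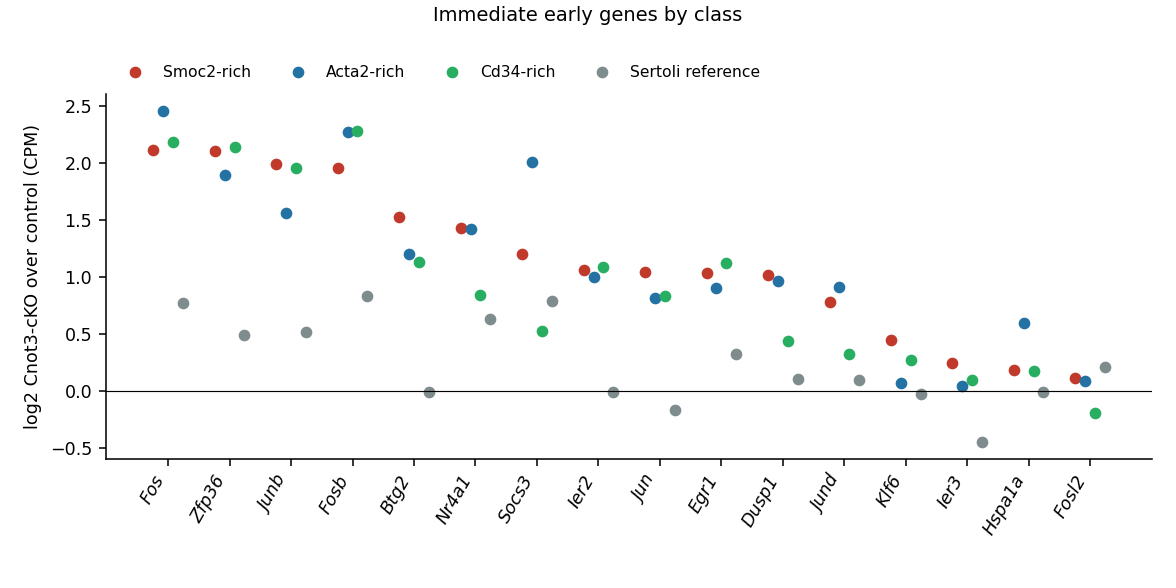
Log2 ratio of Cnot3-cKO over control for the 16 immediate early and stress genes with enough UMIs, in the 4 cell classes. All 16 Smoc2-rich points (red) lie above 0, from 0.11 for Fosl2 to 2.11 for Fos and Zfp36, and the grey Sertoli points lie below the red ones for all but Fosl2.

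RP23-85B15.5, a noncoding gene, had 25 UMIs in 13 control and 242 UMIs in 107 Cnot3-cKO Smoc2-rich cells (log2 3.04, 2.45 to 3.70), and log2 ratios of 5.11 and 6.51 in Acta2-rich and Cd34-rich cells. It lies at chr7:19298260-19300770 (GRCm38) next to Fosb at chr7:19302696-19310051, both on the minus strand. Igfbp3 was at 9.47 and 19 CPM, at 7.43 and 41.0 CPM in Acta2-rich and at 73.0 and 147 CPM in Cd34-rich cells.

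Of the genes past the fold in the lower direction, several were lower in other classes too. Fgfr1, a fibroblast growth factor receptor gene, was at 89.1 and 44.4 CPM (log2 -1.0, -1.14 to -0.87), with log2 ratios of -0.99 in Acta2-rich, -0.97 in Cd34-rich and -0.97 in Sertoli cells. Clasrp, a splicing-related gene, was at 37.9 and 18.1 CPM, with log2 ratios of -1.07 in Smoc2-rich and -1.06 in Sertoli cells. These shifts were nearly equal in all 4 classes. Uchl1, a ubiquitin hydrolase gene used as a spermatogonial marker, was at 8.50 and 2.88 CPM (log2 -1.56, -2.07 to -1.07), and at -1.28, -1.12 and 0.03 in Acta2-rich, Cd34-rich and Sertoli cells. Of 15 imprinted genes H19 (log2 -0.64) and Nnat (-0.63) were past 1.5-fold lower. The haemoglobin genes Hbb-bs, Hba-a1, Hba-a2 and Hbb-bt had the lowest ratios, -8.22 to -8.88, and these came from the 1 haemoglobin-rich control barcode: without it the control cells held 1, 1, 1 and 0 UMIs against 11, 5, 5 and 2 in Cnot3-cKO.

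Most genes above both neighbouring classes stayed within 1.5-fold between genotypes, and Rasd1, a Ras-related gene at 31.2 and 49.7 CPM, did not. Gja1 was at 13.3 and 18.5 CPM (log2 0.47, 0.21 to 0.74). Of the genes below both classes, Tgfbi, which encodes a matrix protein, was at 4.84 and 11.8 CPM, past the fold, as was Pdgfrl. On the log2 scale, Cnot3-cKO relative to control, Lhcgr was at 0.19 (-0.04 to 0.42), Kit at 0.17 (-0.04 to 0.39), Hsd3b1 at 0.17 (-0.09 to 0.43), Bmp2 at 0.15 (-0.02 to 0.33) and Igf1 at 0.12 (0.08 to 0.15). Of the 8 Leydig and steroidogenic genes compared between genotypes 0 were past 1.5-fold in either direction. Of 12 Hedgehog genes, 7 Wnt ligands, 17 TGF-β and BMP ligands and receptors and 9 retinoid genes 0 were past the fold. Over all genes compared only 0.838% were higher and 0.726% lower, so a count of 0 does not set lists of this length apart. Tcf21 had a log2 ratio of -0.31 (-0.34 to -0.27), and Klf4, a transcription factor gene outside the immediate early list, of 0.90 (0.77 to 1.04). Beyond the groups named, Maml2, Pdgfrl, Fgf10, Nr4a1, Nr4a2, Fbln2, Gata6, Klf4 and Gstm6 were also past the fold, all higher in Cnot3-cKO.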

How the data were processed

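The deposited values were UMI counts per gene and barcode, 1 matrix per genotype, made by the authors from 3′ droplet libraries with Cell Ranger 3.0.1 on mm10 according to the submitters' processing notes; no source used here gives the aligner settings. Each matrix merges the 2 samples of a genotype, which cannot be told apart in it, and 0 columns of other samples were present. The study states an Ensembl annotation, and 30766 of 30828 gene IDs (99.8%) matched GENCODE M21.

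CPM was computed from summed counts per class. Ratios have exact conditional 95% binomial intervals, and levels and shares have Clopper-Pearson intervals, for counting error only. A gene was compared with at least 100 UMIs over both sides in each library (over both libraries between genotypes), and genes of the rule were left out between classes. Past the fold meant 2-fold in both libraries between classes and 1.5-fold between genotypes. Named genes were the label markers, Cnot3, the 15 highest and 12 lowest by interval limit against the other interstitial cells, 8 each way against each neighbouring class and between genotypes, the 10 with the highest variance to mean ratio, and up to 4 extremes per list; others named were chosen after their values were seen, as were the promoter motifs. Some genes that this rule names are not reported here. The members and lists were chosen with earlier results of these data known. Empty barcodes had 100 UMIs or fewer.

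Scrublet, through scanpy 1.11.5, called 485 of 8335 control (5.82%) and 459 of 9232 Cnot3-cKO barcodes (4.97%) doublets. Python 3.11.15, NumPy 2.4.6, SciPy 1.17.1, pandas 2.3.3 and matplotlib 3.10.9 were used, and the scripts were tested on simulated data. Alternatives were at least 10000 UMIs, at most 10% mitochondrial UMIs, and the study's stated filters. Those filters were at most 10% mitochondrial UMIs, with UMI and gene totals within 2 standard deviations of their means. Further alternatives were a largest score at least 2 times the others in every class, and score means within library. Doublets were also removed, as were barcodes with 3 or more macrophage or endothelial UMIs. The others were free RNA subtracted, equal weight per cell, thinning to 8000 UMIs, centring on the median gene, and minimums of 30 and 300 UMIs. Removal of the haemoglobin-rich barcode and of Smoc2-rich cells with 3 or more Hsd3b1 UMIs was added after seeing the data.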

Additional observations from a re-analysis of the deposited data

Results flagged for a closer look

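The haemoglobin genes differed in direction between cell classes, with untested differences. In Smoc2-rich cells their log2 ratios of Cnot3-cKO over control were -8.22 to -8.88. For Hbb-bs, a β-globin gene, the ratio was 2.89 in Acta2-rich, 1.93 in Cd34-rich and 8.85 in Sertoli cells. For Hba-a1, an α-globin gene, it was 1.48 in Acta2-rich cells against a floor of 3 counts and 9.44 in Sertoli cells. For Hba-a2 and Hbb-bt it was 8.33 and 8.05 in Sertoli cells, both against the floor of 3 counts. A single control Smoc2-rich barcode held 4416 of 4417 Hbb-bs UMIs, and a single Cnot3-cKO Sertoli barcode held 4645 of 4692.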

How the results depend on the processing

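No paired analysis was possible because the samples of a genotype are merged in 1 matrix, which also kept samples from being left out in turn. Values are control then Cnot3-cKO, ratios are log2 of Smoc2-rich over other interstitial cells, and the cause of each shift was not tested. A stricter setting required a largest score at least 2 times the others in every class. Intermediate cells thus left both sides of the ratios. The Smoc2-rich share of all interstitial barcodes was then 11.1% and 14.0%, and 17.6% and 14.5% of thinned Smoc2-rich cells held a Lhcgr UMI. Tcf21 was -0.094 and -0.32, Mfap4 -0.15 and -0.24 and Ebf1 0.0027 in control. Under that setting 111 ratios of named genes moved beyond their counting interval and 16 did not. With score means within library the share was 30.8% and 30.6% and Ebf1 0.21 and 0.25. At 10000 UMIs Ebf1 was 0.10 in control. Without barcodes of macrophage or endothelial UMIs, Tcf21 was 0.019 and Ebf1 0.19 in control and Mfap4 -0.072 in Cnot3-cKO, and 43 ratios of named genes moved, 1 turned and 89 did neither. With equal weight per cell, Tcf21 was 0.032 and -0.17 and Mfap4 0.060 and -0.081. After centring, Tcf21 was 0.035 and -0.18, Mfap4 0.072 and -0.075 and Ebf1 0.19 and 0.35. After thinning, Tcf21 was 0.023 and -0.18 and Mfap4 0.069 and -0.074. Without Smoc2-rich cells of 3 or more Hsd3b1 UMIs, with the other interstitial cells unchanged, Mfap4 was -0.087 in Cnot3-cKO. Hsd3b1 was then 2.24 and 3.68, down from 5.83 and 7.51.

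With a minimum of 30 UMIs, 143 genes were higher than in the other interstitial cells, 429 than in Acta2-rich and 256 than in Cd34-rich cells, and 264 were higher and 237 lower in Cnot3-cKO. With 300 UMIs, 50 were higher and 168 lower than in the other interstitial cells, 159 and 220 against Acta2-rich, 83 and 193 against Cd34-rich cells, and 32 and 15 between genotypes. Both minimums change the number of genes compared. Without Scrublet doublets the genotype ratios of Hbb-bs, Hba-a1 and Hba-a2 turned to 3.06, 1.74 and 1.74, and without the haemoglobin-rich barcode alone to 3.22, 2.09 and 2.09. Rgs5 turned to 0.99 in Cnot3-cKO without barcodes of macrophage or endothelial UMIs, with 1 UMI left on each side.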

Other observations

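The rule left out cycling cells, and these can be described apart. Barcodes that met every other interstitial limit but held 3 or more Mki67 and Top2a UMIs numbered 308 in control and 215 in Cnot3-cKO. The Smoc2 score was largest in 77 of them (25%, 20.3 to 30.2%) and 57 (26.5%, 20.7 to 32.9%). Kit was at 21.9 and 31.9 CPM in these cycling cells, against 21.5 and 24.2 CPM in the Smoc2-rich cells outside the cycle. Bmp2 was at 29.4 and 40.7 CPM against 32.7 and 36.3 CPM. Lhcgr was at 10.9 and 10.4 CPM against 19.1 and 21.8 CPM, Oxtr at 38.0 and 52.7 CPM against 79.1 and 91.7 CPM, Vcam1 at 92.7 and 109 CPM against 173 and 203 CPM, and Igf1 at 665 and 612 CPM against 990 and 1073 CPM. Lhcgr, Oxtr, Vcam1 and Igf1 were thus lower in the cycling cells of both libraries, while Kit and Bmp2 were near the level of the Smoc2-rich cells. Smoc2, which chose both sets, was at 1216 and 1116 CPM against 1518 and 1511 CPM, and the cycling cells had a median of 22752 and 21078 UMIs.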
